A study of Mus musculus with 9 samples.

Results

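The serine proteases of the kallikrein family that take part in skin shedding, together with their inhibitor Spink5 and the activating protease St14, were followed in imiquimod-treated mouse skin. The members were the 10 genes Klk5, Klk6, Klk7, Klk8, Klk10, Klk11, Klk13, Klk14, Spink5 and St14, whose probes were found by symbol in the array's probe-to-gene table. All 10 were measured, by 12 of the 26423 probes, and they stand among 17742 named genes. Klk6 and Klk11 have 2 probes each and the others have 1. In all, 3 groups of 3 arrays from female BALB/c mice were compared, all treated for 7 days on shaved back skin. The vanillin group was given imiquimod cream together with vanillin, the principal flavour molecule of vanilla, by mouth at 100 mg/kg. The IMQ group was given only imiquimod, which activates toll-like receptor 7 and brings on psoriasis-like inflammation in mice. The mock group received Vaseline cream. The labels give no age, and whether the IMQ and mock mice were given an oral vehicle is not stated. They do not say that each array is a separate mouse, so p-values here reflect only array-to-array spread, part or all of which could be technical.

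The outermost layer of the epidermis is shed when the protein bridges between its dead cells, the corneodesmosomes, are cut. Kallikreins are secreted for this by granular keratinocytes as inactive precursors: KLK5 cuts like trypsin and activates itself, KLK7 and KLK14, and KLK7 cuts like chymotrypsin. Spink5 encodes LEKTI, a multidomain inhibitor of KLK5, KLK7 and KLK14, whose loss causes Netherton syndrome with excessive peeling, and St14 encodes matriptase, a membrane protease that can activate the KLK5 precursor in mice.

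Levels are log2 probe intensities, and a probe's level is set only against its own level in other groups. Array medians lay between 9.297 and 9.302, and Pearson correlations across probes ran from 0.984 to 0.996 within groups and from 0.952 to 0.980 between groups. The tissue is labelled skin while the extraction text names muscle. All 6 suprabasal keratinocyte markers lay at or above percentile 99.0 of mean intensity, and the 6 measured of 9 skeletal muscle markers at or above percentile 73.0, so transcripts of both tissues were present. In whole tissue, fewer cells of a type and less RNA per cell cannot be told apart. Each probe was tested with limma over all 9 arrays, with Benjamini-Hochberg adjustment across the whole array, and was called at an adjusted p under 0.05. A gene with 2 probes was counted by its brighter probe.

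Most of these kallikreins were higher in imiquimod-treated skin. Of the 10 genes, 7 were called higher in IMQ than in mock skin, 1 lower and 2 were not called, beside 24.3% of all genes called higher and 31.6% called lower. The median change over the 10 was 1.49 log2 units, beside -0.06 over all genes. The rises spanned 1.43-fold for Spink5 to 15.1-fold for Klk13.

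The largest change was that of Klk13, a trypsin-like kallikrein. It read 13.90, 13.91 and 14.01 on the vanillin arrays, 14.48, 14.54 and 14.52 on the IMQ arrays and 10.23, 10.81 and 10.74 on the mock arrays. The 3 groups did not overlap, with mock lowest and IMQ highest. The change of IMQ against mock was 3.92 ± 0.14 (SE, limma adjusted p = 5.51e-07), the 21st largest rise among the 17742 genes. Klk8, which encodes neuropsin, read 16.42, 16.44 and 16.47 on the vanillin arrays, 16.40, 16.39 and 16.36 on the IMQ arrays and 13.41, 13.47 and 13.45 on the mock arrays. Replicates of each group lay within 0.1 log2 units of each other, and the groups differed by 2.94 ± 0.07 for IMQ against mock (SE, limma adjusted p = 4.96e-08), a 7.67-fold rise. The brighter Klk11 probe read 14.08, 14.24 and 14.14 on the vanillin arrays, 14.36, 14.50 and 14.36 on the IMQ arrays and 11.62, 11.66 and 11.58 on the mock arrays. Mock was far below both treated groups, and Klk11 rose 6.91-fold with imiquimod (2.79 ± 0.09, SE, limma adjusted p = 1.67e-07).

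A dimmer Klk11 probe, at percentile 65.3 of mean intensity, rose less. It read 10.57, 10.41 and 11.09 on the vanillin arrays, 11.11, 10.94 and 11.30 on the IMQ arrays and 10.04, 10.41 and 10.13 on the mock arrays. Its change for IMQ against mock was 0.92 ± 0.19 (SE, limma adjusted p = 0.00322), the same direction as the brighter probe at a smaller size. Probe sequences were not used here, so hybridisation to related kallikreins was not tested.

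**Figure D1:**
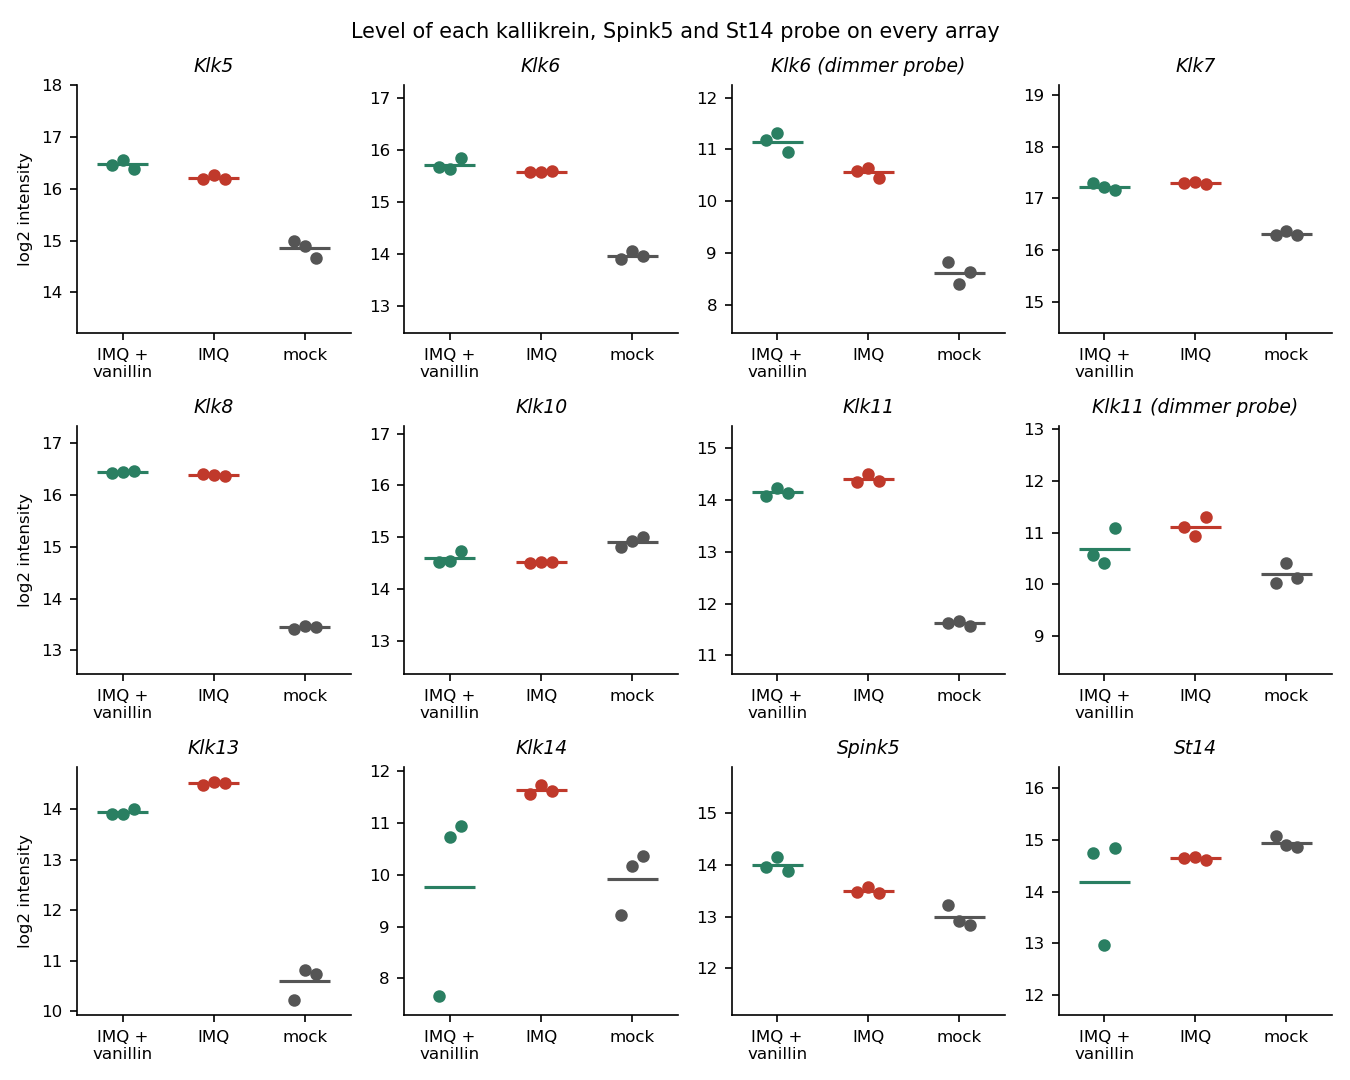
Log2 intensity of the 12 probes on every array, with 3 points and their mean (bar) for the imiquimod plus vanillin, IMQ and mock groups; panels differ in their y range. Klk13, Klk8 and Klk11 show the widest gap between both treated groups and mock, and single low vanillin arrays stand out for Klk14 (7.65) and St14 (12.97).

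The core pair of shedding proteases rose by less. Klk5 read 16.47, 16.56 and 16.38 on the vanillin arrays, 16.20, 16.26 and 16.19 on the IMQ arrays and 15.00, 14.89 and 14.67 on the mock arrays. Its groups did not overlap, and it rose 2.57-fold with imiquimod (1.36 ± 0.10, SE, limma adjusted p = 1.89e-05). Klk7 read 17.29, 17.22 and 17.16 on the vanillin arrays, 17.29, 17.31 and 17.27 on the IMQ arrays and 16.30, 16.37 and 16.29 on the mock arrays. Both treated groups were apart from mock and overlapped each other, and the rise with imiquimod was 1.96-fold (0.97 ± 0.08, SE, limma adjusted p = 2.31e-05). Klk6, which encodes neurosin, read 15.67, 15.65 and 15.84 on the vanillin arrays, 15.59, 15.57 and 15.59 on the IMQ arrays and 13.89, 14.05 and 13.95 on the mock arrays with its brighter probe. That was a 3.07-fold rise with imiquimod (1.62 ± 0.09, SE, limma adjusted p = 4.03e-06), and the dimmer Klk6 probe gave 1.94 ± 0.14.

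Klk10 was the only member called lower. It read 14.52, 14.54 and 14.73 on the vanillin arrays, 14.51, 14.51 and 14.52 on the IMQ arrays and 14.82, 14.93 and 15.01 on the mock arrays. Every treated array lay below every mock array, by -0.40 ± 0.09 for IMQ against mock (SE, limma adjusted p = 0.00538).

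Klk14, a trypsin-like kallikrein that KLK5 activates, varied most between replicates. It read 7.65, 10.73 and 10.94 on the vanillin arrays, 11.56, 11.73 and 11.62 on the IMQ arrays and 9.22, 10.17 and 10.36 on the mock arrays. All IMQ arrays were above all mock and vanillin arrays, and vanillin replicate 1 was far below the rest. The change of IMQ against mock, 1.72 ± 0.76 (SE, 95% interval -0.02 to 3.45, limma adjusted p = 0.0870), was not called. Without vanillin replicate 1 the same change was called (adjusted p = 0.00138, the lowest of its 17 alternative settings, which reached 0.241).

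Among the regulators, Spink5 rose, and whether St14 was called depended on 1 array. Spink5 read 13.97, 14.16 and 13.87 on the vanillin arrays, 13.48, 13.56 and 13.46 on the IMQ arrays and 13.21, 12.91 and 12.84 on the mock arrays. The 3 groups did not overlap, in the order vanillin, IMQ and mock from high to low. The inhibitor was 1.43-fold higher in IMQ than in mock skin (0.51 ± 0.12, SE, limma adjusted p = 0.00673). St14 read 14.75, 12.97 and 14.84 on the vanillin arrays, 14.65, 14.68 and 14.61 on the IMQ arrays and 15.07, 14.91 and 14.86 on the mock arrays. IMQ arrays lay below all mock arrays, and vanillin replicate 2 lay far below the other 8. The change of St14 for IMQ against mock was -0.30 ± 0.42 (SE, limma adjusted p = 0.572), not called. Without vanillin replicate 2, which widens the shared spread, the same -0.30 had an SE of 0.09 and was called lower (adjusted p = 0.0216, and 0.0192 to 0.720 over its 17 alternative settings).

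**Figure D2:**
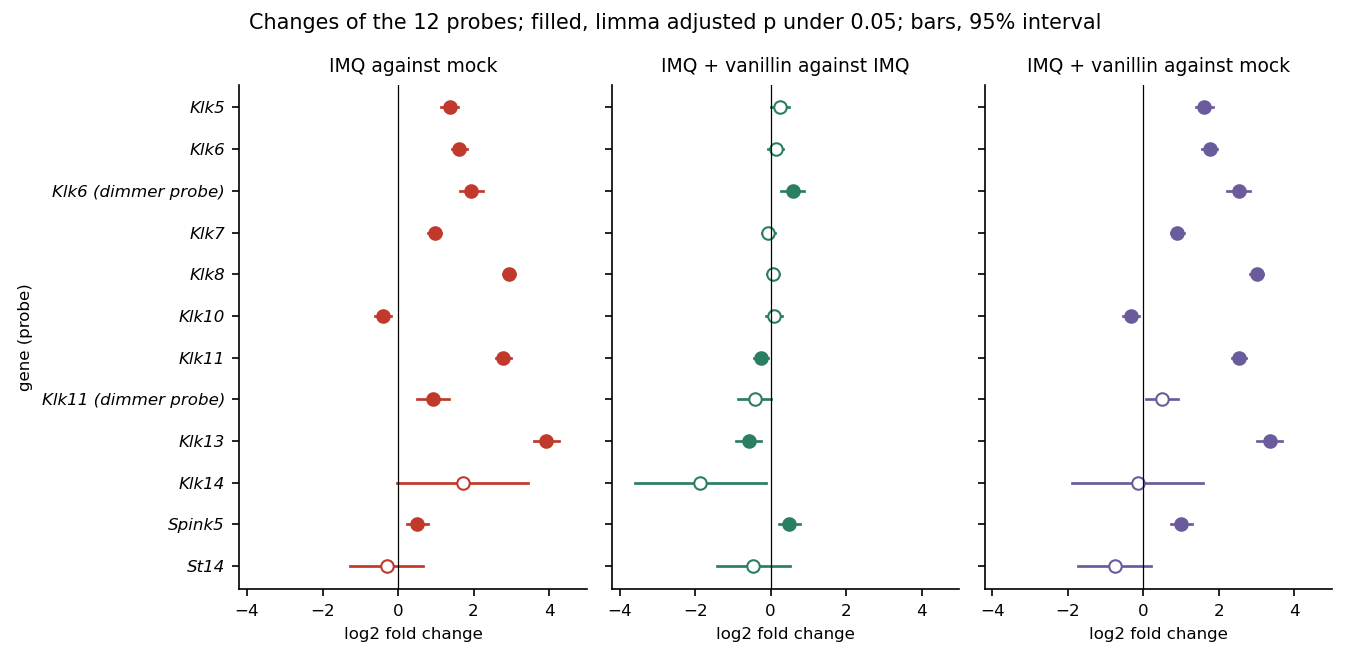
Log2 fold change of each of the 12 probes (x) with its 95% interval in the 3 comparisons; filled points have a limma adjusted p under 0.05. With imiquimod the rises run up to 3.92 for Klk13, while with vanillin added the called changes lie between -0.57 and 0.59.

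Vanillin was then set against IMQ, to see how the oral compound altered these genes under the same cream. Of the 10 genes 1 was called higher, 2 lower and 7 were not called, beside 26.2% of all genes called higher and 16.6% called lower, so the number of calls does not set these genes apart. The median over the 10 was -0.00 log2 units, beside 0.06 over all genes. Spink5 was higher with vanillin, by 0.50 ± 0.12 (SE, limma adjusted p = 0.0125), a 1.41-fold difference with all vanillin arrays above all IMQ arrays. Klk13 was lower with vanillin, by -0.57 ± 0.14 (SE, limma adjusted p = 0.0142), 1.49-fold, again without overlap. Klk11 fell by 0.26 ± 0.09 (SE, limma adjusted p = 0.0405) on its brighter probe. It no longer passed in 6 of 9 refits that each dropped an array, nor with the replicate number as a block (adjusted p = 0.0552, and 0.0191 to 0.142 over its 17 alternative settings), and the dimmer Klk11 probe, at -0.43 ± 0.19, was not called (adjusted p = 0.0991).

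No brighter probe of Klk5, Klk6, Klk7, Klk8 or Klk10 was called in vanillin against IMQ. For Klk8 the 95% interval of vanillin against IMQ was -0.10 to 0.22, for Klk7 -0.24 to 0.11 and for Klk10 -0.12 to 0.29. Klk5 read 0.26 ± 0.10 (SE, limma adjusted p = 0.0759) and was not called, although all vanillin arrays lay above all IMQ arrays. It was called in 5 of 17 alternative settings (adjusted p from 0.00507 to 0.196). The Klk6 probes disagreed: the brighter one read 0.14 ± 0.09 (limma adjusted p = 0.235), while the dimmer one read 11.18, 11.31 and 10.94 on the vanillin arrays, 10.58, 10.63 and 10.45 on the IMQ arrays and 8.82, 8.39 and 8.63 on the mock arrays, and was called higher by 0.59 ± 0.14 (adjusted p = 0.00985). The mean of both probes, 0.36, was called (adjusted p = 0.00525).

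Klk14 read -1.86 ± 0.76 for vanillin against IMQ (SE, limma adjusted p = 0.0801) and was not called. Without vanillin replicate 1 the value was -0.80 (adjusted p = 0.0791), and without vanillin replicate 3 it was -2.44 and called (adjusted p = 0.0310, and 0.00712 to 0.158 over 17 alternative settings). St14 read -0.46 ± 0.42 (adjusted p = 0.410), and 0.15 without vanillin replicate 2 (adjusted p = 0.267).

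Vanillin-treated skin was also compared with mock skin, with which the IMQ comparison shares its mock arrays. Calls covered 8 of the 10 genes, 7 of them higher and 1 lower, beside 13.4% of all genes higher and 15.9% lower, with a median of 1.32 log2 units beside 0.01 over all genes. Klk13 was 10.2-fold higher in vanillin than in mock skin, Klk8 8.0-fold, Klk11 5.79-fold, Klk6 3.38-fold and Klk5 3.07-fold. The dimmer Klk11 probe was not called there, at 0.50 ± 0.19 (SE, limma adjusted p = 0.0878) with vanillin arrays overlapping mock, and the mean of both Klk11 probes was 1.51 log2 units higher. Spink5 was 2.02-fold higher (1.01 ± 0.12, SE, limma adjusted p = 0.000408) and Klk7 1.87-fold. Klk10 was lower, at -0.32 ± 0.09 (limma adjusted p = 0.0305), which no longer passed in 7 of 9 refits that each dropped an array, nor in a fit of only those groups (adjusted p = 0.113, and 0.00151 to 0.113 over 17 alternative settings). Klk14 read -0.14 ± 0.76 and St14 -0.76 ± 0.42, neither of them called. Without vanillin replicate 1 the Klk14 value was 0.92 (adjusted p = 0.0652), and without vanillin replicate 2 the St14 value was -0.15 (adjusted p = 0.306).

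Whether the transcripts of proteases and inhibitor changed equally was read within each array. The measure was the log2 value of Klk5, Klk7 or Klk14 minus that of Spink5, centred on the mock mean. It shows unequal change of transcripts only, since protein and protease activity were not measured. Klk5 minus Spink5 was 0.64, 0.54 and 0.65 on the vanillin arrays, 0.85, 0.83 and 0.87 on the IMQ arrays and -0.08, 0.12 and -0.03 on the mock arrays. The 3 groups did not overlap, with IMQ highest. For Klk7 minus Spink5 the values were -0.01, -0.27 and -0.04 on the vanillin arrays, 0.48, 0.41 and 0.48 on the IMQ arrays and -0.25, 0.13 and 0.12 on the mock arrays. Here the vanillin arrays overlapped mock and lay below every IMQ array. Klk14 minus Spink5 was -3.24, -0.36 and 0.14 on the vanillin arrays, 1.15, 1.23 and 1.23 on the IMQ arrays and -0.92, 0.33 and 0.59 on the mock arrays, again with IMQ above both others.

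The differences between group means for Klk5, Klk7 and Klk14 minus Spink5 were -0.24, -0.56 and -2.36 for vanillin against IMQ. For IMQ against mock the same 3 quantities were 0.85, 0.46 and 1.20. Against mock the vanillin values were 0.61, -0.11 and -1.16. The Klk14 values rested on vanillin replicate 1: without it, Klk14 minus Spink5 was -1.32 relative to IMQ and -0.11 relative to mock. All 9 differences subtract the same Spink5 probe, so they are not independent of each other or of the member changes given above. For vanillin against IMQ, Spink5 itself read 0.50 (called), and Klk5, Klk7 and Klk14 themselves read 0.26, -0.07 and -1.86 (none called). In an exact two-sided permutation test 7 of the 9 differences had p = 0.1, the smallest that 3 against 3 arrays allow (0.129 after Benjamini-Hochberg over the 9), so none could pass 0.05. The other 2, Klk7 and Klk14 for vanillin against mock, had an exact p of 0.5.

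**Figure D3:**
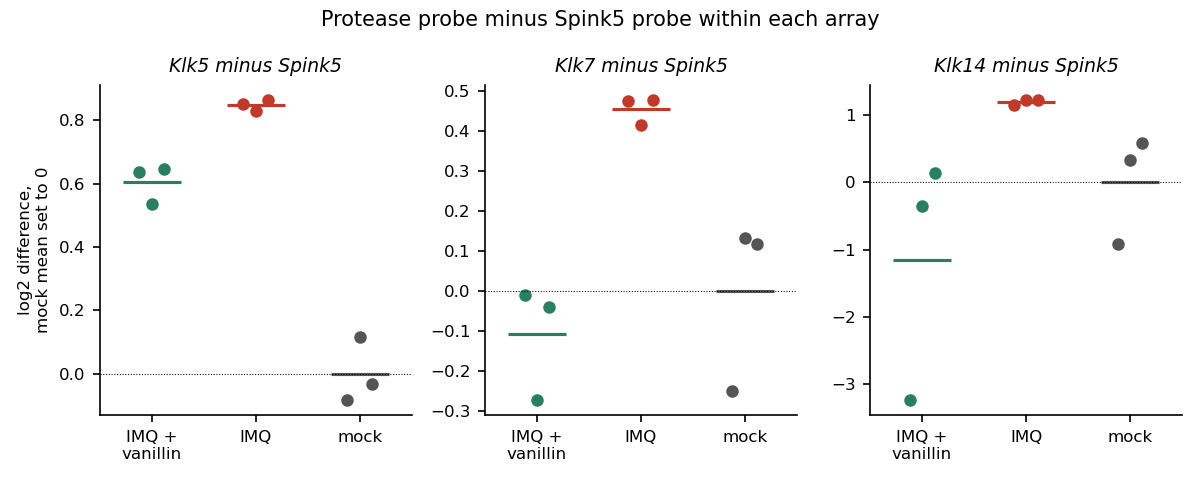
Log2 value of Klk5, Klk7 or Klk14 minus that of Spink5 on each array (y, mock mean set to 0), with 3 points and their mean (bar) for the imiquimod plus vanillin, IMQ and mock groups; y ranges differ. In all 3 panels the IMQ arrays lie above the vanillin and mock arrays, and all 3 subtract the same Spink5 probe.

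The kallikrein genes lie side by side on chromosome 7. Of 26 annotated there, 13 were measured, and adjacent genes could change unequally. By their brightest probes, all measured genes called higher with imiquimod lay from Klk13 to Klk5, a stretch that also holds Klk10. Whether the changes followed the order was not tested. Klk13, at 3.92 for IMQ against mock, stands next to Klk12 at 0.97. Klk10, the gene called lower, stands between Klk11 at 2.79 and Klk9, which is not among the 10 genes studied, at 3.52 (limma adjusted p = 3.18e-08), with another Klk9 probe at 4.80. Beyond Klk5, at the other end of the group, Klk4 read 0.23 (not called), and Klk15 was lower by -0.91 (limma adjusted p = 0.000596). The Klk15 probe was dim, at percentile 27.6.

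**Figure D4:**
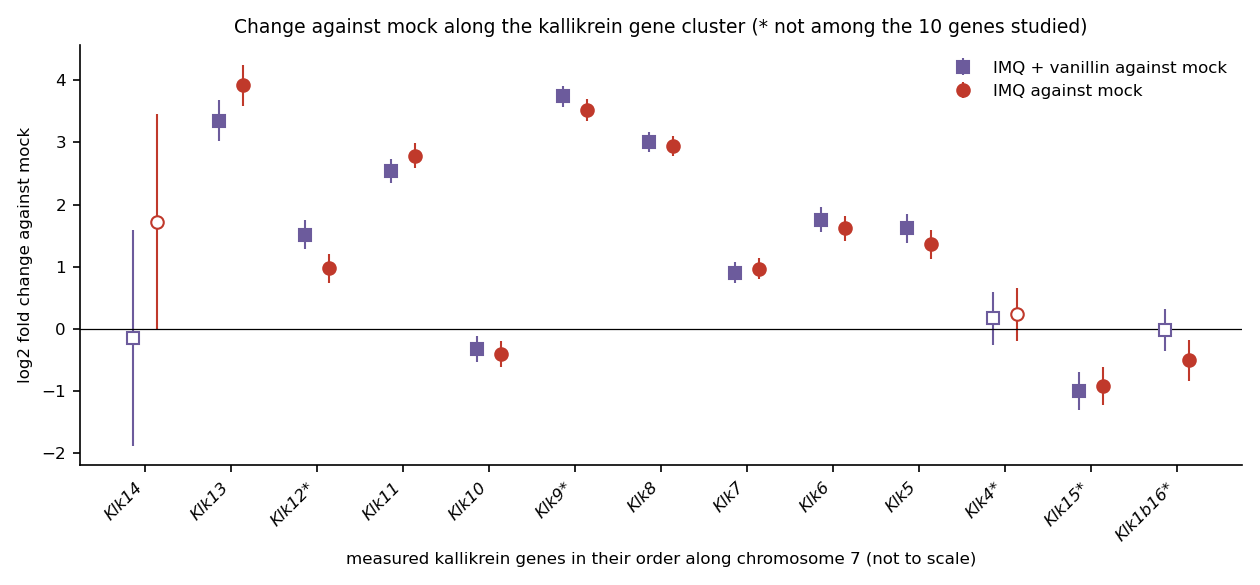
Log2 fold change against mock with its 95% interval for the 13 measured kallikrein genes in their order along chromosome 7 (equal spacing, not to scale), for imiquimod plus vanillin (squares) and IMQ (circles); filled symbols have an adjusted p under 0.05. Rises of 3.92 (Klk13), 2.79 (Klk11), 3.52 (Klk9) and 2.94 (Klk8) flank Klk10 at -0.40 with imiquimod.

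The 250 bases before the annotated start are shown for the 3 members with the largest rises and for Klk10, the one between them that fell. They are RefSeq sequence of build GRCm38.p6, plus strand, 5′ to 3′, and capitals mark the STAT-type letters TTCNNNGAA. For Klk11, which has 2 annotated starts, the upstream one is given. The windows are chr7:43712317-43712566 for Klk13, chr7:43774367-43774616 for Klk11, chr7:43780804-43781053 for Klk10 and chr7:43797327-43797576 for Klk8.
Klk13: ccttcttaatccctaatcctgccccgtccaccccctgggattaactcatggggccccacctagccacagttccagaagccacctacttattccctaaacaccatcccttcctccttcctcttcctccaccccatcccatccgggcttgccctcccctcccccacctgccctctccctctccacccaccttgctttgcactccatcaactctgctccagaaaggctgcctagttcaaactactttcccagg
Klk11: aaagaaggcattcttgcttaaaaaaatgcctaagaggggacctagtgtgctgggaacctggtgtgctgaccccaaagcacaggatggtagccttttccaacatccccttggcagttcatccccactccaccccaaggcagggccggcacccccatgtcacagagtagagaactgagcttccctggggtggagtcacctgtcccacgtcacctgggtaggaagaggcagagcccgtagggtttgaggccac
Klk10: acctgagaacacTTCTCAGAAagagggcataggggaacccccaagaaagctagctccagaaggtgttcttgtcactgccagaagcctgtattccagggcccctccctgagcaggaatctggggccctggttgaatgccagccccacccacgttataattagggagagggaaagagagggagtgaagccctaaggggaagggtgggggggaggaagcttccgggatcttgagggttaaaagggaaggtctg
Klk8: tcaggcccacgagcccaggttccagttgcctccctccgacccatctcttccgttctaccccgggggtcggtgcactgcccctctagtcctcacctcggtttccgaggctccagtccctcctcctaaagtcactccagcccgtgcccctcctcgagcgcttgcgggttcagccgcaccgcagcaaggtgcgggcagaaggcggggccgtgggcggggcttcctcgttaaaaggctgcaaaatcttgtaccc
Windows from 250 bases before to 50 after the start were on hand for 8 of the members (10 windows, none for Spink5 or St14). They were searched on both strands for 4 published motifs. The box that places many start sites was written as TATAAA. Sites of the AP-1 family of stress-responsive factors were written as TGANTCA. Those of the grainyhead-like factors, which act in barrier epithelia, were AACNNGTT, and those of the STAT factors downstream of cytokine receptors were TTCNNNGAA. A single match was found, TTCTCAGAA at position -238 from the start of Klk10, so no matches overlapped. Among all 32851 windows of that length 13.62% held the start-site box, 7.81% those of AP-1, 4.20% those of grainyhead-like factors and 8.30% those of STAT. GC content of the 10 windows ran from 52.0% to 65.3%, beside a median of 52.7% over all windows.

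Related genes were counted in lists chosen by role. The shares of all genes called, given above for each comparison, are the background for these counts. Of the other kallikreins 5 of 18 were measured, and 2 were higher, 2 lower and 1 not called in IMQ against mock (median 0.23). Klk12 rose by 0.97 ± 0.10, and it was also higher with vanillin than with IMQ, by 0.54 ± 0.10 (limma adjusted p = 0.00476). Klk1b16 was lower in IMQ than in mock skin (-0.51 ± 0.15) and higher in vanillin than in IMQ skin (0.49 ± 0.15), and belongs to a subfamily of near-identical genes, so its identity is uncertain.

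Of the matriptase system, 1 of 6 genes was higher, 1 lower and 4 were not called in IMQ against mock (median -0.08). The membrane protease Tmprss13 rose by 2.02 ± 0.31. Spint1, the Kunitz inhibitor of matriptase, fell by 0.50 ± 0.10 (limma adjusted p = 0.00270) and was higher with vanillin than with IMQ by 0.56 ± 0.10 (adjusted p = 0.00359). For vanillin against IMQ this list gave 1 higher, 2 lower and 3 not called (median -0.06), the lower ones being Tmprss11e at -0.71 ± 0.10 and F2rl1, the protease-activated receptor that KLK5 and KLK14 cleave, at -0.42 ± 0.13 (adjusted p = 0.0275). The probes of Spint2, a related Kunitz inhibitor, disagreed: the brightest read -0.15 ± 0.36 with imiquimod relative to mock and 0.31 ± 0.36 with vanillin relative to IMQ (neither called). Its other 2 probes were both lower with vanillin than with IMQ, by -0.78 ± 0.13 (adjusted p = 0.00305) and -0.27 ± 0.08 (adjusted p = 0.0232), and for IMQ against mock they read 0.25 (not called) and -0.77 (called lower). Prss8, a protease that acts with matriptase, read 0.00 ± 0.13 and 0.15 ± 0.13 in the same 2 comparisons and was not called.

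Other secreted protease inhibitors gave 8 higher, 2 lower and 3 not called of 13 measured of 14 in IMQ against mock (median 0.61). These calls included dim probes, down to percentile 4.1 among the higher and 26.6 among the lower. Wfdc12 rose by 5.02 ± 0.10, Wfdc5 by 2.34 ± 0.11 and Slpi, the secretory leukocyte protease inhibitor, by 1.63 ± 0.10, while Spink12 fell by 1.93 ± 0.10. For vanillin against IMQ 3 were higher, 1 lower and 9 not called (median 0.16), and Spink6, an inhibitor of kallikreins in human skin, was the lower one at -0.83 ± 0.13. Its probe was dim, at percentile 30.1. Spink4, Spink12 and Spink1 were higher, by 0.80 ± 0.14, 0.34 ± 0.10 and 0.27 ± 0.09, and Wfdc12 read 0.00 ± 0.10 (not called).

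The corneodesmosome, which these proteases cut, gave 5 higher, 2 lower and 1 not called of 8 measured of 10 in IMQ against mock (median 0.40). Dsg1a, a desmoglein, rose by 1.05 ± 0.14, and Cdsn, corneodesmosin, rose by 0.84 ± 0.10 (limma adjusted p = 0.000169). Perp, a desmosomal membrane protein, rose by 0.66 ± 0.09. The desmosome linker Dsp fell by 0.72 ± 0.16. Desmocollin 1, Dsc1, was lower at -0.35 ± 0.09 (adjusted p = 0.00836). Vanillin against IMQ gave 3 higher, 1 lower and 4 not called (median -0.01): Dsp, Jup and Pkp1 were higher by 0.55 ± 0.16, 0.44 ± 0.11 and 0.35 ± 0.09, and Pkp3 was lower by -0.59 ± 0.13. Cdsn read -0.09 ± 0.10 and Dsg1a -0.36 ± 0.14 there, neither called.

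Other epidermal proteases gave 8 higher, 1 lower and 2 not called of 11 in IMQ against mock (median 0.60), with Casp14, which processes filaggrin, at 3.48 ± 0.08, Tmprss4 at 3.09 ± 0.12, Blmh at 1.51 ± 0.08 and Ctsb at 1.07 ± 0.17. For vanillin against IMQ 1 was higher, 5 lower and 5 not called (median -0.17). Prss27 and Tmprss4 were lower, by -0.70 ± 0.19 and -0.55 ± 0.12, and Ctsc, cathepsin C, was higher by 0.61 ± 0.09. Another Tmprss4 probe read -0.31 ± 0.33 and was not called. Ctsb was lower at -1.0 ± 0.17 on its brighter probe, but its other probe moved the opposite way in both comparisons (-0.81 with imiquimod and 0.44 with vanillin added, both called). Of 5 kallikrein substrates and outputs 3 were higher, 1 lower and 1 not called in IMQ against mock (median 0.66). Filaggrin, Flg, rose by 1.20 ± 0.11, the cytokine Il1b by 1.05 ± 0.11, and Camp, the cathelicidin precursor that kallikreins process, fell by 0.71 ± 0.08. The cytokine Tslp rose on all 3 of its probes, by 0.66, 2.69 and 1.85. For vanillin against IMQ this list gave 2 higher, 1 lower and 2 not called (median 0.20): Il1b was higher by 0.59 ± 0.11 (limma adjusted p = 0.00437), Camp was higher by 0.42 ± 0.08 (adjusted p = 0.00497), and F2rl1, counted here too, was lower. Tslp was not called by its brightest probe. Another Tslp probe was called lower, by -0.46 (limma adjusted p = 0.0171), and the remaining one read 0.34 (not called).

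The same lists were read for vanillin against mock, which shares arrays with both comparisons above. The other kallikreins gave 2 higher, 1 lower and 2 not called, with Klk9 at 3.74, Klk12 at 1.51 and Klk15 at -1.0. The matriptase system gave 1 higher (Tmprss13 at 1.76), 2 lower (F2rl1 at -0.58 and Tmprss11e at -0.46) and 3 not called. Spint2 was not called by its brightest probe, while its other probes were called lower, by -0.52 and -1.04. Inhibitors gave 7 higher, 2 lower and 4 not called, with Wfdc12 at 5.02, Wfdc5 at 2.10, Slpi at 1.81 and Spink12 at -1.59. The corneodesmosome gave 5 higher, 1 lower and 2 not called, with Cdsn at 0.75, Pkp1 at 0.73, Dsg1a at 0.70 and Jup at 0.65. The other epidermal proteases gave 5 higher, 0 lower and 6 not called, with Casp14 at 3.04, Tmprss4 at 2.55, Blmh at 1.34 and Asprv1 at 0.64. Among substrates and outputs 2 were higher (Il1b at 1.64 and Flg at 1.40), 2 lower (Camp at -0.29 and F2rl1) and 1 not called. The gene not called was Tslp by its brightest probe, while its other probes were called higher, by 2.23 and 2.20.

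**Figure D5:**
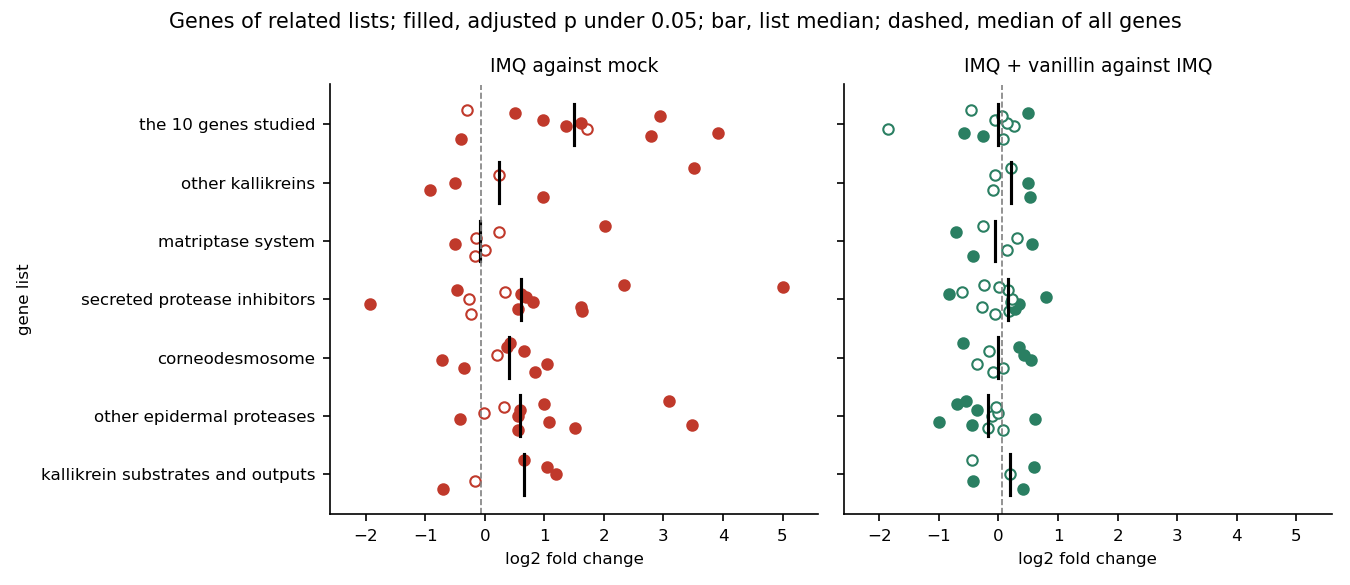
Log2 fold change (x) of the genes in each list, 1 point per gene by its brightest probe, for IMQ against mock and for imiquimod plus vanillin against IMQ; filled points have an adjusted p under 0.05, the black bar is the list median and the dashed line the median of all genes. The 10 genes studied have a median of 1.49 with imiquimod and -0.00 with vanillin added.

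Some markers of suprabasal keratinocytes were also higher in imiquimod-treated skin. Of 6 suprabasal keratinocyte markers 4 were higher and 0 lower in IMQ against mock, among them Krt1 at 3.43 ± 0.12, while Krt10 (0.15 ± 0.09) and Lor (0.24 ± 0.11) were not called. Their summed intensity on the log2 scale was 20.24 to 20.34 in vanillin skin, 20.23 to 20.26 in IMQ skin and 19.64 to 19.73 in mock skin, and by their brightest probes 0 of the 6 were called for vanillin against IMQ. Another probe of Ivl, involucrin, at percentile 97.7, was lower there by -0.50 ± 0.08 (limma adjusted p = 0.00232), where the brightest read -0.23 ± 0.08 (adjusted p = 0.0507). Of 10 hair follicle markers 1 was higher and 6 were lower in IMQ against mock, with sums of 19.88 to 20.01 in vanillin, 19.97 to 20.01 in IMQ and 20.10 to 20.29 in mock skin. Adipocyte markers summed to 17.19 to 17.28 in vanillin, 16.59 to 16.60 in IMQ and 17.52 to 17.70 in mock skin, with 5 of 5 called lower in IMQ against mock and 5 of 5 higher in vanillin against IMQ. The 6 muscle markers summed to 18.14 to 18.23 in vanillin, 17.85 to 17.89 in IMQ and 18.17 to 18.34 in mock skin (4 lower with imiquimod and 5 higher with vanillin against IMQ). Basal keratinocyte markers gave 2 higher and 2 lower of 6 in IMQ against mock, sebaceous gland markers 3 higher and 2 lower of 7, and neutrophil markers 1 higher and 0 lower of 4. In vanillin against IMQ, where Spink5 was higher, 0 basal markers were called by their brightest probes, sebaceous markers gave 3 higher and 1 lower, and neutrophil markers 2 higher and 0 lower. The probes of Trp63, a basal marker counted as higher in IMQ against mock, disagreed. Its other probes read -1.34 (called lower) and -0.21 (not called) in IMQ against mock. For vanillin against IMQ they read -0.01 (not called) and 0.38 (called higher, limma adjusted p = 0.00591). Neutrophil sums were 11.22 to 11.33 in vanillin, 10.73 to 10.84 in IMQ and 10.43 to 10.58 in mock skin, without overlap. The neutrophil probes were dim, with a median percentile of 37.1 and a lowest of 17.3. None of the markers in these lists was at 0 on any array, and their part in the changes of the kallikreins and Spink5 was not tested.

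The genes most like 3 of the members over the 9 arrays were found by the root-mean-square difference between log2 profiles, each centred on its own mean, among 17741 other genes. For Klk5 they were Tgm5, Slfn2, Serpina12 and Lce1c, at 0.06 to 0.09 log2 units. Among the other members the profile nearest to Klk5 was that of Klk6, at 0.17, and Spink5 lay at 0.36. The profiles most like Spink5 were those of Nfkbiz, Agtpbp1, Chm and Nab1, at 0.04 to 0.06. For St14 they were Sod2, Nit2, Slc9a7 and Ubr7, at 0.13 to 0.16. On vanillin replicate 2, the array on which St14 was low, these 4 genes lay at -2.15 to -1.52 log2 units relative to the mean of the other two vanillin arrays. They were chosen for likeness over all arrays, replicate 2 included, so these low values follow from the choice.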

How the data were processed

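One-colour arrays were hybridised with Cy5-labelled RNA from 9 samples, per the labels' protocols. The deposited table holds linear probe intensities, and the submitters' processing notes name limma; for scanner, background correction and filters the sources used here give nothing. Sorted values above 100 differed by at most 3.42% between the deposited columns, so a change of total signal cannot be seen. Values under 1 were set to 1 and log2 was taken, with no filter and no further normalization, since medians differed by under 0.1. The number of arrays limits the precision. With limma 3.58.1 under R 4.3.3, group means were estimated per probe from the 9 arrays together and moderated by empirical Bayes, and each comparison was adjusted over all 26423 probes. The procedure was tested on simulated data. Through a RefSeq table of GRCm38.p6, used for gene names and order, 18213 probes had a current symbol, 2126 an updated synonym and 38 kept theirs; 6046 had none. All members are named, and of each other list up to 4 called genes with the largest change per comparison; Dsc1, Prss8, Spint2, marker genes, the not-called Cdsn, Dsg1a, Wfdc12 and Klk4 values and other probes of list genes were added after their values were seen. Exact permutation tests used scipy 1.17.1. Members and lists were chosen with earlier results of these data known. Alternatives changed the normalization, dim-probe filter, offset, prior, array weights, arrays fitted, replicate block and probe summary, and left out each array in turn.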

Additional observations from a re-analysis of the deposited data

How the results depend on the processing

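For IMQ against mock 8 of the 10 genes were called, and 8 to 10 over all alternatives; for vanillin against mock 8 were called, and 7 or 8 over all alternatives. For vanillin against IMQ 3 were called, 5 with array weights, and 2 to 4 in all other alternatives. The replicate numbers gave no sign of pairing the arrays. Same-numbered arrays of different groups had deviations correlated from -0.27 to 0.22, and differently numbered ones from -0.18 to 0.26. With 3 arrays per group these correlations cannot exclude pairing. With the replicate number as a block 9, 3 and 8 genes were called for IMQ against mock, vanillin against IMQ and vanillin against mock, with 13609, 9968 and 6224 of all probes. Over all probes vanillin against IMQ gave 10898 calls, 6923 without IMQ replicate 1 and 6576 without IMQ replicate 3. Signs turned for St14 in vanillin against IMQ (-0.78 to 0.15 with 1 array left out; 0.15 without vanillin replicate 2) and for Klk14 in vanillin against mock (-0.72 to 0.92 with 1 array left out; 0.08 without mock replicate 3 and 0.92 without vanillin replicate 1). The differences of proteases minus Spink5 kept their signs in all alternatives run. The cause of these shifts was not tested. Klk5, Klk6, Klk7, Klk8, Klk11, Klk13 and Spink5 were called higher against mock, and Klk13 lower and Spink5 higher in vanillin against IMQ, under all 17 alternatives. The 2 calls for vanillin against IMQ passed narrowly in some settings, with limma adjusted p reaching 0.0482 for Klk13 and 0.0499 for Spink5. The lowest 25% of probes held none of the members.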
